A study of Mus musculus with 7 samples.

Results

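The genes described here move bicarbonate and protons across membranes or interconvert carbon dioxide and bicarbonate. They are 9 genes of 54532 features in the count table: 5 genes of the Slc4 family (Slc4a2, Slc4a3, Slc4a4, Slc4a7 and Slc4a11) and 4 carbonic anhydrase genes (Car2, Car9, Car12 and Car13). The genes were chosen by name, and the list was drawn up with earlier results of the same comparison known, so the differences between the groups are given as a description. Messenger RNA had been sequenced from C3H10T1/2, an established line of mouse mesenchymal cells that can form bone, fat and cartilage cells in culture. The control group held 3 libraries of untreated cells. The OB group held 4 libraries, made after 3 days of induction toward osteoblasts. The inducing medium held β-glycerophosphate at 10 mM, ascorbic acid at 50 µM, dexamethasone and penicillin-streptomycin. Both groups were grown in MEM with fetal bovine serum, non-essential amino acids, glutamine and pyruvate, and the labels name no genetic change. Dexamethasone is a synthetic glucocorticoid, and the additives were given together, so their separate contributions cannot be told apart. The labels give no culture time for the controls.

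Cells make acid as they metabolise, and bicarbonate is their main buffer. Proteins of the Slc4 family carry bicarbonate: the anion exchangers swap it for chloride, while the sodium-coupled cotransporters bring it into or out of the cell with sodium. Carbonic anhydrases catalyse the reversible hydration of carbon dioxide, some inside the cell and some at its outer face. In bone the same proteins are best known from osteoclasts, which secrete acid with the help of carbonic anhydrase II and remove the bicarbonate left behind through the anion exchanger AE2. In bone-forming cells, bicarbonate transport and proton removal matter because the deposition of mineral releases protons.

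Total counts on genes ran from 21213328 to 46530017 per library. Levels are given as CPM, the count scaled to the TMM-adjusted library total, and a count of 3, the limit below which a level is not separated from 0 here, equals 0.0639 to 0.139 CPM in a single library. Control 3 stood apart from the other libraries on the first principal component of log2 CPM, at -96.9 against -25.3 to 52.0. The labels also sort the libraries into sets: control 1 and OB 1 are marked C1, control 2 and OB 2 are marked C2, and control 3, OB 3 and OB 4 have no C number. All 10 markers of mesenchymal cells passed the filter on low counts. Of 8 osteoblast markers 4 passed the filter, and the 8 summed to 465 to 682 CPM in control and 218 to 791 CPM in OB. Spp1 was the most abundant of the 8, so the sum need not describe the others. For cells known for high Car2, 8 markers of red blood cells summed to at most 1.16 CPM in a library, and 8 osteoclast markers to 24.9 to 36.9 CPM. The osteoclast sum was led by Nfatc1, a transcription factor gene that is not limited to osteoclasts, and Dcstamp, a gene of osteoclast fusion, was at 0 counts in every library. Sums reached at most 3.62 CPM for epithelial, 3.93 CPM for macrophage and 10.5 CPM for endothelial markers. No marker of any list was called between the groups by edgeR. The samples are bulk cultures, so fewer cells of a type and less RNA per cell cannot be told apart.

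Of the 9 genes, 8 passed the filter on low counts and 1 (Car12) did not. By edgeR's quasi-likelihood test, adjusted over 15441 genes, 1 of the 8 was higher in OB (Slc4a4), 1 was lower (Slc4a7) and 6 did not pass at adjusted p under 0.05. Over all genes tested, 8.04% passed in either direction, 4.32% higher and 3.72% lower. The median log2 fold change was 0.06 over the 8 genes and -0.00 over all genes tested. The libraries of the groups did not overlap for Slc4a4 and Slc4a7 and overlapped for the other 6, while 25.5% of all genes tested did not overlap. The plot of CPM by library shows all 9 genes.

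**Figure D1:**
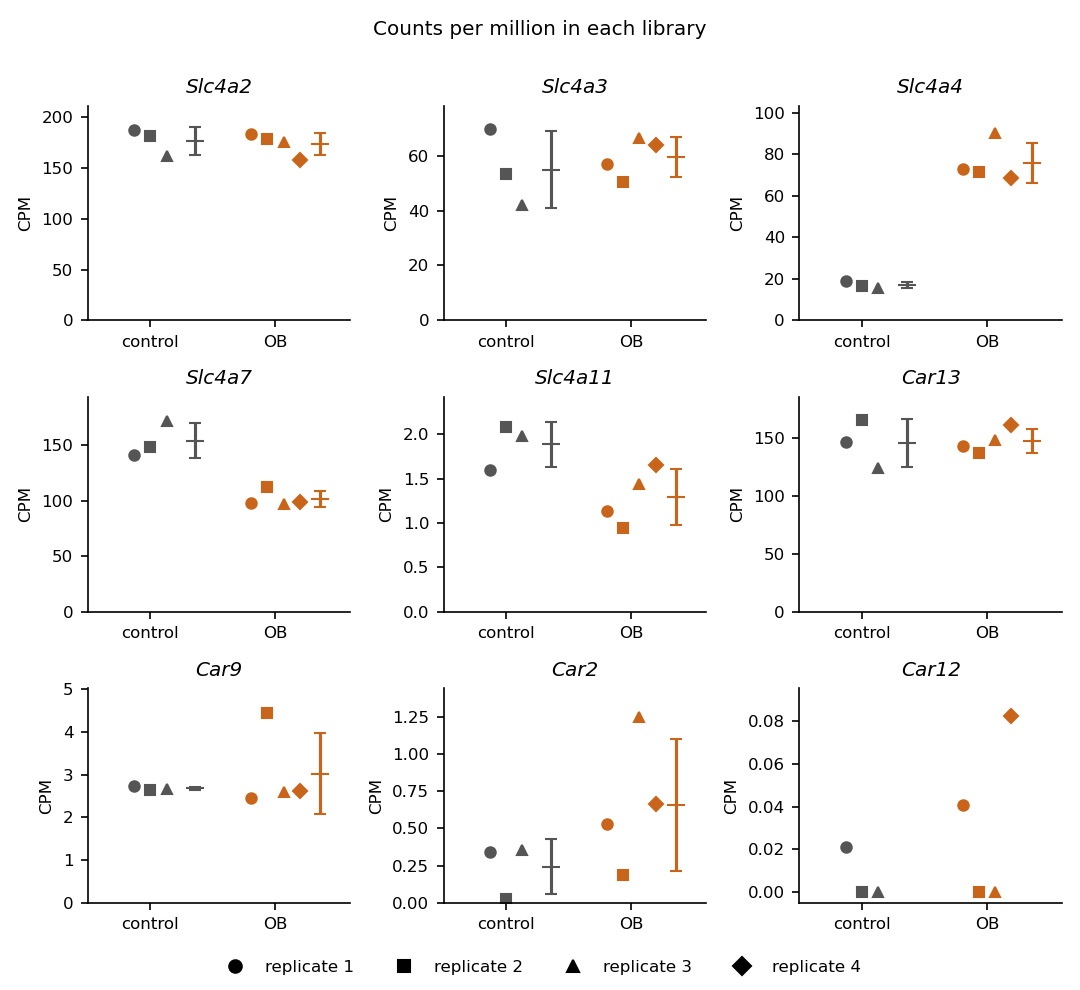
CPM (vertical axes, each starting at or just under 0) of the 9 genes in 3 control and 4 OB libraries, with the mean and SD beside the points except for Car12, which had 4 counts in all. Slc4a4 separates upward (15.8 to 18.9 against 68.8 to 90.2 CPM) and Slc4a7 downward, while the other genes overlap.

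Slc4a4 encodes NBCe1, an electrogenic cotransporter that moves sodium together with more than a single bicarbonate ion and so carries charge. Its level was 18.9, 16.4 and 15.8 CPM in control 1, 2 and 3, and 73.0, 71.5, 90.2 and 68.8 CPM in OB 1, 2, 3 and 4. Every OB library stood above every control library, and the lowest OB library was still far from the highest control. The control mean was 17.1 ± 1.65 CPM (SD, n = 3), and the OB mean was 4.45 times as high at 75.9 ± 9.72 CPM (SD, n = 4). The log2 fold change was 2.15 ± 0.14 (SE; edgeR adjusted p = 0.000567), and only 6 of the 15441 genes had a smaller p. The call held under every alternative tried and without each library in turn, with log2 fold changes of 2.03 to 2.31. Within label sets the gene went from 18.9 to 73.0 CPM in the C1 pair, from 16.4 to 71.5 CPM in the C2 pair and from 15.8 CPM to 90.2 and 68.8 CPM in the libraries with no C number.

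Slc4a4 (ENSMUSG00000060961) spans 88886818 to 89239653 on the plus strand of chromosome 5 in mm10, and RefSeq lists 2 start sites for it, 140706 bases apart. The upstream start is known to give the widely expressed forms of NBCe1 and the internal start the kidney form, and counts summed over all exons do not separate them. The 300-base window around the upstream start (250 bases before it and 50 after) held 50 CG dinucleotides and 80.0% G and C, and that around the internal start held 3 and 48.3%. Over 32851 such RefSeq windows (GRCm38.p6) the medians were 7 CG dinucleotides and 52.7%. Shown are the 250 bases before the internal start of Slc4a4 and before the only listed start of Slc4a7, the genes that changed. The stretch before the upstream start of Slc4a4 is not printed. Which of its starts was in use cannot be told from these counts. Both printed stretches lie on the plus strand, at chr5:89027716-89027965 and chr14:14718534-14718783, and read 5′ to 3′.
Slc4a4 internal start: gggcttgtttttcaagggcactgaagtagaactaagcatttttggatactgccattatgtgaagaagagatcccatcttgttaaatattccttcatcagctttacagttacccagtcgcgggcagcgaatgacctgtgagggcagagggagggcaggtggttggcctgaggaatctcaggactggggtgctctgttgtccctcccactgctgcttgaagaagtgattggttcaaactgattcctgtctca
Slc4a7 start: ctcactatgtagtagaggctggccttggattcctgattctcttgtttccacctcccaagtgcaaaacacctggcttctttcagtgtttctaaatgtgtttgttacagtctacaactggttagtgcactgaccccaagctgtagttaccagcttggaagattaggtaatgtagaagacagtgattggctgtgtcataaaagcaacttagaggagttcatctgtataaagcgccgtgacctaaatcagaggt
No letters are in capitals because none of the motifs searched on both strands lies in these stretches. The motifs were CACGTG (the E-box of clock and Myc factors), ACGTG (the core of the hypoxia response element, which also lies inside CACGTG), ACANNNTGT (the core spacing of a glucocorticoid response element) and TGACGTCA (the cyclic AMP response element). They occur in 7.15%, 19.6%, 6.85% and 1.79% of all windows. Windows were listed for 6 of the 9 genes, 8 windows in all, and ACGTG was in 1 of them, ACANNNTGT in 2, and the other motifs in 0. These matches describe letters in a short window and say nothing of binding.

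Slc4a7 encodes NBCn1, an electroneutral cotransporter that takes up sodium and bicarbonate and so raises the pH of the cell. Its level was 142, 148 and 172 CPM in control 1, 2 and 3 and 97.8, 112, 96.8 and 99.2 CPM in OB 1 to 4. All OB libraries lay below all control libraries, with OB 2 nearest to them. The control mean was 154 ± 15.9 CPM (SD, n = 3), and the OB mean of 102 ± 7.23 CPM (SD, n = 4) was 0.660 of it. The log2 fold change was -0.60 ± 0.11 (SE; edgeR adjusted p = 0.0200), a smaller change than that of Slc4a4, in a gene with the higher count. The call ended without control 2 or without OB 1, 3 or 4 (adjusted p = 0.0574 to 0.0697) and among the C1 and C2 libraries alone, where the log2 fold change was -0.46 (adjusted p = 0.0512). The direction was the same in every alternative. The summed level of 15 cell cycle genes was also lower in OB. It went from 1095, 2689 and 3244 CPM in control 1, 2 and 3 to between 599 and 741 CPM in OB, and the controls had the same order in that sum as in Slc4a7. Whether the one bears on the other was not tested. Slc4a7 (ENSMUSG00000021733) spans 14702279 to 14799940 on the plus strand of chromosome 14. The start listed for it lies inside that span.

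The pair of sodium-bicarbonate cotransporter genes, far apart in control, stood at similar levels per kilobase of exon in OB. In CPM Slc4a7 stayed higher in OB, with means of 102 against 75.9. The lengths used, 15205 bases for Slc4a7 and 10815 for Slc4a4, join all annotated exons and need not be those of the transcripts expressed. Per kilobase of exon (FPKM), Slc4a7 stood at 5.32, 6.43 and 7.72 times the level of Slc4a4 in control 1, 2 and 3, and at 0.952, 1.12, 0.764 and 1.03 times in OB 1 to 4. Slc4a4 made up 13.6 ± 2.18% of the summed FPKM of the pair in control (SD, n = 3) and 51.1 ± 4.06% in OB (SD, n = 4). The summed level moved far less than the shares, from 11.1 to 12.8 FPKM in control to 12.9 to 14.7 FPKM in OB. Of all 5 Slc4 genes together, summed at 37.4 to 42.0 FPKM in control and 39.6 to 43.8 FPKM in OB, Slc4a4 held 3.97 ± 0.181% in control and 16.8 ± 1.53% in OB. Slc4a7 held 22.2 to 30.2% and 14.5 to 17.8%. These shares restate the changes of the same 2 genes and carry no test. The plot of Slc4 shares by library shows that the anion exchanger portion stayed the larger part throughout.

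**Figure D2:**
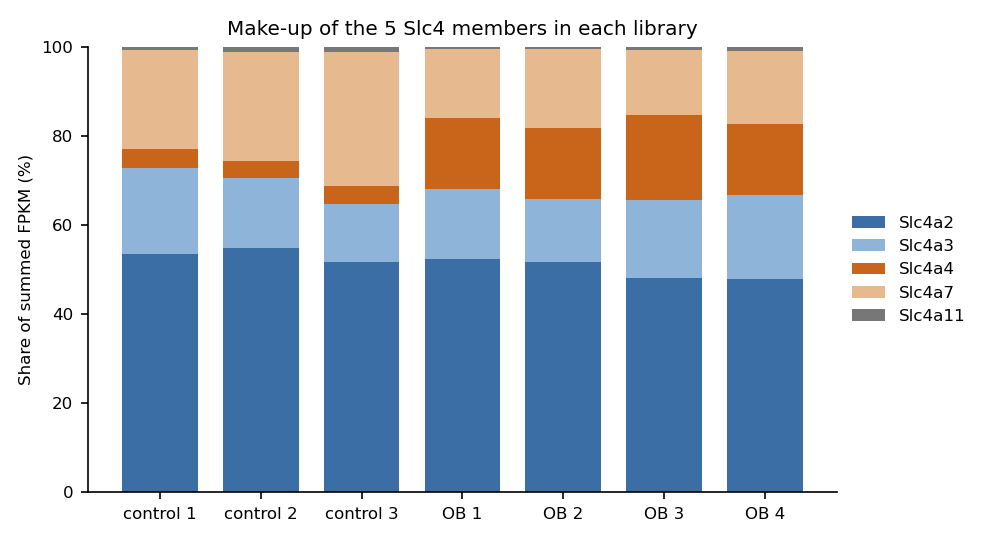
Share of the summed FPKM of 5 Slc4 genes (vertical axis, percent) in each of the 7 libraries. The Slc4a4 segment is 3.82 to 4.17% in control and 15.9 to 19.1% in OB, and the Slc4a7 segment shrinks from 22.2 to 30.2% to 14.5 to 17.8%.

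The anion exchanger genes did not pass the test. Slc4a2, which encodes AE2, the widely expressed exchanger of chloride for bicarbonate, had 187, 182 and 161 CPM in the controls, against 183, 179, 175 and 158 CPM in OB 1 to 4. The groups overlapped along nearly their whole range. The log2 fold change was -0.02 ± 0.10 (SE; edgeR adjusted p = 0.913). Of its exon bases 13.7% overlap other genes, mostly Fastk on the opposite strand, where fragments are left uncounted. Slc4a3 encodes AE3, an exchanger best known from heart and nerve cells, and was at 69.6, 53.2 and 41.9 CPM in control and 56.8, 50.3, 66.5 and 63.7 CPM in OB. The controls alone covered the whole range of the OB libraries (log2 fold change 0.11 ± 0.18, edgeR adjusted p = 0.748). Its direction depended on the label set: the log2 fold change was -0.19 among the C1 and C2 libraries (adjusted p = 0.461) and 0.62 among those with no C number (adjusted p = 0.00194), where control 3 is the lone control and 40.1% of all genes passed. The difference between the label sets was not tested.

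Slc4a11 encodes a membrane protein of the same family that is known for proton and water movement in the corneal endothelium and does not carry bicarbonate. It was rare, at 1.6, 2.08 and 1.98 CPM in control and 1.14, 0.940, 1.44 and 1.65 CPM in OB. OB 4 lay above control 1, and the other OB libraries lay below all controls. The means were 1.89 ± 0.256 (SD, n = 3) and 1.29 ± 0.316 CPM (SD, n = 4), with a log2 fold change of -0.55 ± 0.27 (SE; edgeR adjusted p = 0.251). The gene rested on 198 counts over the controls and 139 over the OB libraries, and its log2 fold change was similar to that of Slc4a7 with a larger standard error.

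The remaining Slc4 genes and the Slc26 family, which also exchanges chloride, bicarbonate, sulfate and other anions, were read from a list of 17 genes. Of these 9 passed the filter, 1 was higher in OB, 1 was lower and 7 did not pass, and the median log2 fold change was 0.49. The counts of higher and lower genes were 5 and 1 by DESeq2 and 3 and 2 by limma-voom. DESeq2 was run on the whole list without that filter, and its 5 include Slc26a4, which was not among the 9. Over all genes tested, the shares called in either direction were 8.04% by edgeR, 12.9% by DESeq2 and 15.1% by limma-voom. The higher gene was Slc4a5, which encodes NBCe2, the other electrogenic sodium-bicarbonate cotransporter. It was at 0.128, 0.0854 and 0.0794 CPM in control, near the level of 3 counts, and at 1.06, 1.72, 0.371 and 0.455 CPM in OB (log2 fold change 3.15 ± 0.67, edgeR adjusted p = 0.0307). The lower gene was Slc4a8, which encodes NDCBE, an electroneutral sodium-driven exchanger of chloride and bicarbonate. It went from 23.0, 25.1 and 35.4 CPM in control to 5.82, 5.95, 14.8 and 10.1 CPM in OB (log2 fold change -1.61 ± 0.35, edgeR adjusted p = 0.0325). Slc4a10, a further electroneutral sodium-coupled gene, had 32 counts over the controls and 9 over the OB libraries and was not tested. Thus the electrogenic genes Slc4a4 and Slc4a5 were called higher and the electroneutral genes Slc4a7 and Slc4a8 lower, a grouping made after their values were seen. The call of Slc4a5 ended without OB 1, without any 1 control (adjusted p up to 0.111) and among the libraries with no C number. Without OB 2 the gene did not pass the filter on low counts and was not tested. That of Slc4a8 ended without control 2 or 3 or OB 1, 2 or 4 (up to 0.0881).

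Among the carbonic anhydrases, Car13 was by far the most abundant. Car13 encodes a cytosolic enzyme and was at 147, 166 and 125 CPM in control and 143, 138, 149 and 161 CPM in OB. The OB libraries lay inside the range of the controls. The means were 146 ± 20.8 (SD, n = 3) and 148 ± 10.2 CPM (SD, n = 4), with a log2 fold change of 0.02 ± 0.12 (SE; edgeR adjusted p = 0.953). Of the summed FPKM of the 4 carbonic anhydrase genes, Car13 made up at least 97.7% in every control library and at least 96.8% in every OB library.

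Car9 encodes a membrane enzyme with its active site outside the cell and is a classical target of hypoxia-inducible factor. The 30 bases before its RefSeq start, at chr4:43506996-43507025 on the plus strand, are shown because they hold the hypoxia core ACGTG on the minus strand, which reads CACGT here, in capitals.
Car9 site: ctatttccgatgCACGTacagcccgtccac
ACGTG is found in 19.6% of all windows, and GENCODE M21 places this whole stretch in the 5′UTR of a Car9 transcript that starts further upstream. Car9 was at 2.72, 2.65 and 2.66 CPM in control and 2.44, 4.44, 2.60 and 2.61 CPM in OB 1 to 4. All libraries but OB 2 fell within a narrow band, and OB 2 stood above it. The log2 fold change was 0.18 ± 0.27 (SE; edgeR adjusted p = 0.722), and it turned to -0.07 without OB 2 (adjusted p = 0.884). Of 20 other hypoxia response genes, 1 was higher in OB by edgeR (Adm, log2 fold change 1.97) and 2 were lower (P4ha1, -1.30, and Ak4, -3.43), with a median of -0.19. The shares over all genes tested were 4.32% higher and 3.72% lower. Adm was called under every alternative. The call of P4ha1 ended without control 2 or OB 1, 3 or 4 and among the C1 and C2 libraries, and that of Ak4 without any 1 OB library and with the replicate block (adjusted p = 0.0888). The number of lower genes was 0 without OB 1, 3 or 4 and 3 without control 3. It was 1 without OB 2 or control 2 and with the replicate block. DESeq2 called 4 lower, beside 12.9% of all genes in either direction. Libraries with no C number hold 1 control, so their counts are not given for this list. The summed level of the 20 genes was 1884, 1969 and 4253 CPM in control 1, 2 and 3 and 1733, 2297, 1599 and 1588 CPM in OB 1 to 4. Control 3 had the highest sum of the 7 libraries, with Car9 at 2.66 CPM. OB 2 had the highest sum among the OB libraries, with Car9 at 4.44 CPM. Each of these rests on a single library, and whether Car9 and that sum are linked was not tested. Of the Car9 exon bases 9.29% overlap other genes, mostly Gm12454 on the opposite strand.

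Car2 encodes carbonic anhydrase II, the cytosolic enzyme that osteoclasts and red blood cells hold in large amounts. It had 16, 1 and 9 counts in control 1, 2 and 3 and 13, 8, 27 and 16 counts in OB 1 to 4, which is 0.341, 0.0285 and 0.357 CPM against 0.529, 0.188, 1.25 and 0.662 CPM. OB 3 was the highest library and control 2 the lowest, and OB 2 fell below 2 of the controls. The log2 fold change was 1.39 ± 0.80 (SE; edgeR adjusted p = 0.322), and no alternative called it. The value moved with single libraries, to 0.85 without control 2 and 0.87 without OB 3, and was 0.74 among the C1 and C2 libraries and 2.43 by limma-voom. Pooled over libraries, 26 counts in control and 64 in OB give a ratio of 2.34, with an exact binomial 95% interval of 1.46 to 3.85 that covers counting error only and not the spread between libraries. Car12, which encodes a membrane enzyme of epithelia facing outward like Car9, had 1 count over the controls and 3 over the OB libraries. The ratio of its pooled CPM was 2.85 with an exact binomial interval of 0.229 to 150, and its pooled level was at most 0.0519 CPM in control and 0.0777 CPM in OB by the upper ends of exact Poisson intervals.

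Car13 and Car2 lie on the plus strand of chromosome 3 with 223271 bases between them, and Car1 and Car3 sit in the gap. Levels within this cluster were very unequal: Car13 was at 146 CPM on average in control, Car2 at 0.242, Car3 at 0.190 and Car1 at 0.0380. A list of 12 other carbonic anhydrase genes and related proteins had 4 members that passed the filter, with a median log2 fold change of 0.63. By edgeR 0 were called, and 1 higher and 0 lower had unadjusted p below 0.05. DESeq2, run without that filter, called 1 higher and 1 lower, and the lower gene was Car8, which is not among the 4. limma-voom called 0. The shares of all genes called in either direction were 12.9% by DESeq2 and 15.1% by limma-voom. Car5b, which encodes a mitochondrial enzyme, was the most abundant at 40.8, 41.4 and 32.1 CPM in control and 58.6, 69.4, 53.5 and 46.9 CPM in OB. Its groups did not overlap, and its log2 fold change was 0.58 ± 0.16 (SE; edgeR adjusted p = 0.0630). With the replicate number as a block it passed (adjusted p = 0.0232), as it did with the label set block. DESeq2 (0.0274) and edgeR among the C1 and C2 libraries (0.0307) also called it. It did not pass by limma-voom (0.0543), with other scalings or with no filter. Nor did it pass when any 1 library was left out (edgeR adjusted p = 0.0699 to 0.150). Car11, an acatalytic relative, had means of 9.26 ± 5.79 CPM (SD, n = 3) and 10.3 ± 1.13 CPM (SD, n = 4), a log2 difference of 0.15 (adjusted p = 0.865 by edgeR).

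Compared per kilobase of exon, the 9 genes kept most of their order. In control it ran Car13 (63.5 ± 9.05 FPKM, SD, n = 3), Slc4a2 (21.2 ± 1.64), Slc4a7 (10.1 ± 1.05), Slc4a3 (6.39 ± 1.62), Slc4a4 (1.58 ± 0.152), Car9 (1.16 ± 0.0180), Slc4a11 (0.377 ± 0.0511), Car2 (0.100 ± 0.0765) and Car12. No neighbours in that order overlapped in control. In OB, Slc4a4 moved up to 7.01 ± 0.898 FPKM (SD, n = 4), beside Slc4a3 at 6.90 ± 0.845 and Slc4a7 at 6.68 ± 0.476, and the libraries of these 3 genes overlapped. Car2 (0.271 ± 0.183) and Slc4a11 (0.259 ± 0.0633) also overlapped in OB. Among all 15441 genes tested, the mean level of Slc4a4 was above that of 29.8% in control and of 59.0% in OB, while Car13 was above 95.4% and 95.5%. The plot of levels per kilobase shows the 3 transporter genes meeting in OB.

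**Figure D3:**
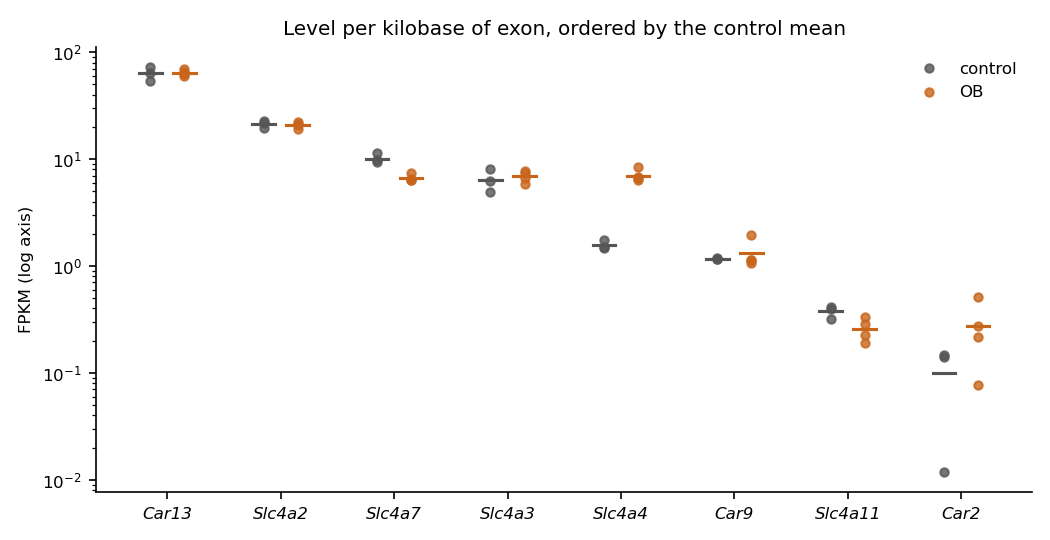
FPKM per library (points, log axis) and group means (bars) of 8 genes, ordered by the control mean, with Car12 left out because most of its libraries are at 0. Slc4a4 lies near 1.58 FPKM in control and 7.01 FPKM in OB, at the level of Slc4a3 and Slc4a7.

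Regulators of bicarbonate and proton transport were read from a list of 15 genes, of which 12 were tested. By edgeR 3 were higher in OB, 0 were lower (6 and 0 with unadjusted p below 0.05) and 9 did not pass, with a median log2 fold change of 0.41. Of all genes tested, edgeR called 4.32% higher and 3.72% lower. Itpr1, a receptor for inositol trisphosphate that releases calcium from the endoplasmic reticulum, was at 14.4 ± 0.524 CPM in control (SD, n = 3) and rose to 23.6 ± 2.24 CPM in OB (SD, n = 4). Ahcyl2 encodes a relative of IRBIT, the partner of that receptor known to activate NBCe1, and it rose from 26.0 ± 3.73 to 52.9 ± 16.8 CPM. The kinase gene Wnk4, which governs ion cotransport in the kidney, rose from 15.3, 13.1 and 2.70 CPM in control to 93.1, 111, 32.9 and 45.7 CPM in OB. On the log2 scale these changes were 0.71 ± 0.13 for Itpr1, 1.02 ± 0.24 for Ahcyl2 and 2.76 ± 0.65 for Wnk4 (SE), and edgeR's adjusted p was 0.0184, 0.0392 and 0.0428. The number of higher genes was 1 with the replicate number as a block, where Itpr1 and Ahcyl2 did not pass (adjusted p = 0.05002 and 0.0669). It was 0 without control 2, OB 1 or OB 4 and 1 without OB 3, and it was 5 by DESeq2 and by limma-voom, which both called 0 lower. When single libraries were left out, Wnk4 passed only without control 3 and Ahcyl2 only without OB 2. Their edgeR adjusted p rose to at most 0.111 and 0.132. Itpr1 failed in 3 of these fits, those lacking control 2, OB 1 and OB 4 (at most 0.0844).

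Subunits of the V-type ATPase, the proton pump of lysosomes and of acid-secreting cells, were read from a list of 25 genes. Of 21 tested subunit genes edgeR called 6 higher and 0 lower (10 and 0 with unadjusted p below 0.05). Over the whole list DESeq2 called 6 and 0, and limma-voom 7 and 0. Over all genes tested edgeR called 4.32% higher and 3.72% lower. In either direction DESeq2 called 12.9% of all genes and limma-voom 15.1%. The other 15 did not pass by edgeR, with a median log2 fold change of 0.30. Atp6v1e1 was at 73.7 ± 5.03 CPM in control (SD, n = 3) and rose to 105 ± 7.63 CPM in OB (SD, n = 4). Atp6v0d1 rose from 110.4 ± 17.7 to 196 ± 33.6 CPM, Atp6v1f from 44.2 ± 4.43 to 61.0 ± 0.804 CPM and Atp6v1a from 201 ± 18.3 to 282 ± 10.5 CPM. In that order the changes were 0.51, 0.83, 0.46 and 0.49 on the log2 scale, and edgeR's adjusted p was 0.0261, 0.0289, 0.0304 and 0.0305. None of these calls held without each library in turn (adjusted p up to 0.0871 to 0.117), and the count was 0 without control 2, OB 1 or OB 2, 1 without OB 3 or OB 4, 2 without control 1 and 3 without control 3 or with no filter on low counts. With the replicate block Atp6v1e1, Atp6v1f and Atp6v1a did not pass (0.0519, 0.0572 and 0.0512). Of the 50-base words of Atp6v1f 11.2% recur in other genes.

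The list of sodium-proton exchangers, monocarboxylate carriers and proton channels had 11 tested genes of 17. Of these edgeR called 1 higher and 0 lower (2 and 1 with unadjusted p below 0.05). Over the whole list DESeq2 called 1 and 1, and limma-voom 1 and 0. Of all genes, 8.04%, 12.9% and 15.1% were called in either direction by edgeR, DESeq2 and limma-voom. Bsg, the chaperone of monocarboxylate carriers, had means of 651 ± 89.1 CPM in control (SD, n = 3) and 634 ± 49.1 CPM in OB (SD, n = 4). The higher gene was Hvcn1, a voltage-gated proton channel gene, at 0.362, 0.427 and 0.278 CPM in control and 1.46, 1.41, 1.48 and 0.662 CPM in OB (log2 fold change 1.80 ± 0.38, edgeR adjusted p = 0.0296). That call ended when any library but OB 4 was left out (adjusted p up to 0.0880) and among the libraries with no C number. Of the Hvcn1 exon bases 44.2% overlap other genes, mostly Tctn1 on the opposite strand. Of 4 tested proton-sensing receptors and acid-gated channels, 0 were called by edgeR, DESeq2 or limma-voom, and 1 higher and 0 lower had unadjusted p below 0.05 by edgeR. The acid-gated sodium channel genes Asic1 and Asic3 were the highest of the list per length, at 24.7 to 37.1 and 0.913 to 1.85 CPM in control and 26.1 to 35.8 and 1.20 to 3.82 CPM in OB. The plot of fold changes by list shows that spread.

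**Figure D4:**
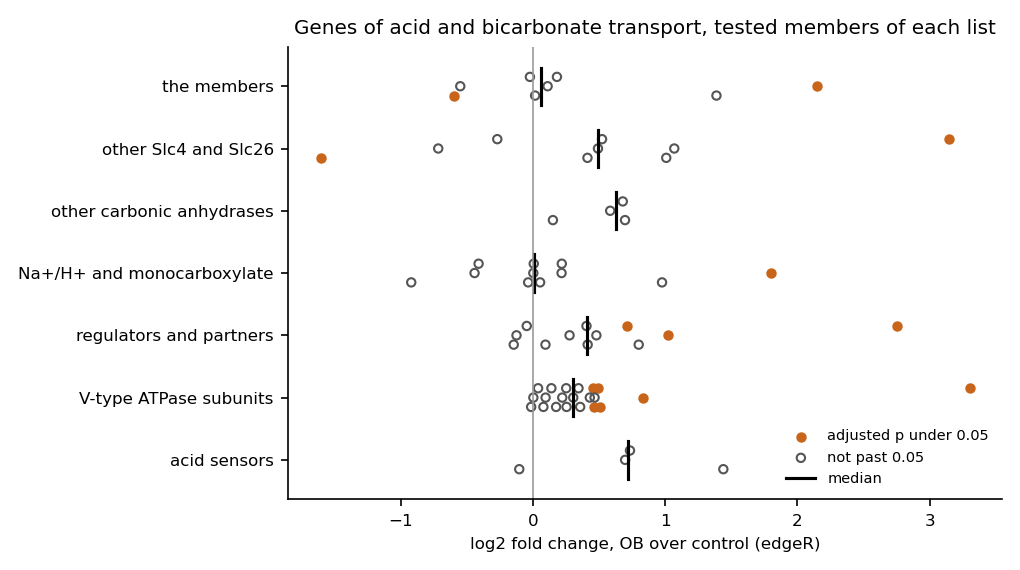
Log2 fold change of OB over control (horizontal axis) for the tested genes of 7 lists, with a bar at each median. The members lie around 0.06 with Slc4a4 at 2.15, and the V-type ATPase subunits lie between -0.01 and 3.30.

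For the 14 glucocorticoid receptor target genes, edgeR called 12 higher and 0 lower (14 and 0 with unadjusted p below 0.05). Zbtb16, Tsc22d3, Cebpd and Klf9 came first in order of p. Of 15 cell cycle genes 13 were lower and 0 higher (14 and 0), with Kif20a, Ccnb2, Cdc20 and Cenpf first. The edgeR shares over all genes tested were 4.32% higher and 3.72% lower. The number of lower cell cycle genes was 4 without OB 1 or control 2 and among the C1 and C2 libraries, 5 without OB 2, and 8 without OB 3 or OB 4. Of the 4 named, Cdc20 was not called among the C1 and C2 libraries (adjusted p = 0.0530), and the other 3 were called under every alternative. DESeq2 and limma-voom also called 0 the other way in both lists. These lists had already been looked at in these data. Whether treatment or time in culture lies behind their differences was not tested, as the labels give no culture time for the controls. The plot of fold changes under each alternative sets the 8 tested genes side by side: every alternative called Slc4a4, 11 of 16 called Slc4a7, and 1 called Slc4a3. The share of all genes called in either direction differed widely between them. It was 8.06% with DESeq2 size factors, 8.01% with upper-quartile scaling, 4.72% with no filter, 12.9% by DESeq2, 15.1% by limma-voom, 8.76% with the replicate block and 17.4% with the label set block. Libraries marked C1 or C2 gave 9.67%, and those with no C number 40.1%. It was 7.46%, 1.87% and 6.72% without control 1, 2 and 3, and 2.09%, 3.59%, 3.93% and 3.48% without OB 1, 2, 3 and 4.

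**Figure D5:**
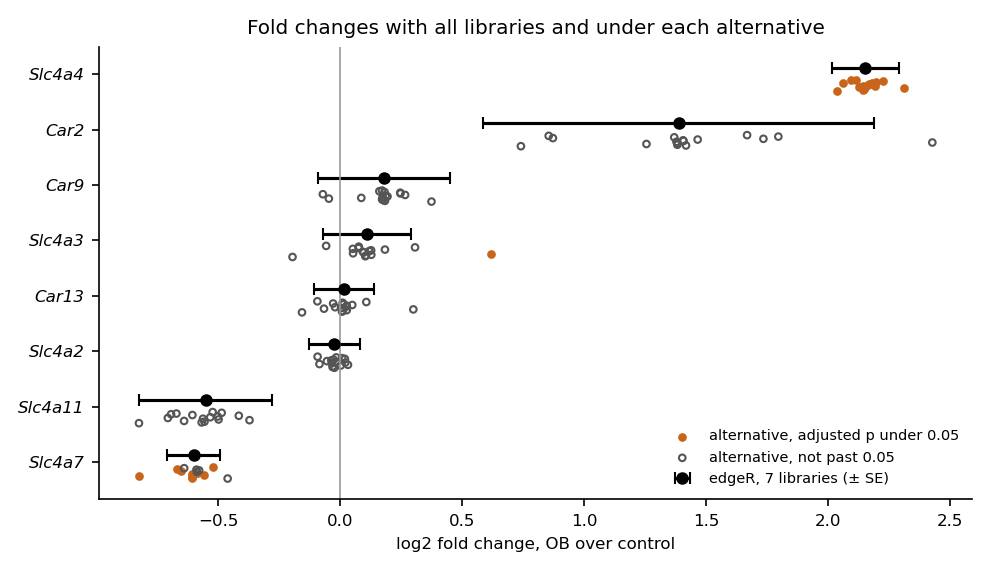
Log2 fold change of OB over control (horizontal axis) of the 8 tested genes with all 7 libraries (black, ± SE) and under each of 16 alternatives (smaller points, filled where adjusted p was under 0.05). Slc4a4 stays between 2.03 and 2.31, Slc4a7 between -0.82 and -0.46, and Slc4a2, Slc4a3, Car9 and Car13 fall on both sides of 0.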

How the data were processed

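The deposited table holds whole fragment counts per gene, not normalised. Per the file headers, the authors counted with featureCounts 1.6.4 over exons of the Ensembl 94 annotation, with no strand, multi-mapping or overlap option. Per the submitters' processing notes, Trimmomatic, HISAT2 and the mm10 build were used, and versions of Trimmomatic and HISAT2 were not given in the labels. Per the labels' protocols the library kit was TruSeq v.2, which does not mark strand, so sense and antisense reads were counted alike. Columns are numbered and were matched to samples by the order of inputs in the recorded counting command, which could not be checked in another way. All 9 genes matched the table by symbol.

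OB was compared with control in R 4.3.3 with edgeR 4.0.16 (filterByExpr, TMM scaling, quasi-likelihood test, Benjamini-Hochberg over 15441 genes, threshold 0.05). Each SE is the absolute log2 fold change over the square root of edgeR's F. Counts of list genes at unadjusted p below 0.05 have no share over all genes beside them, so they cannot be weighed against one. FPKM are CPM divided by the deposited exon length in kilobases. Rare genes have exact Poisson or binomial 95% intervals, which cover counting error only. Alternatives were other scalings, no filter, DESeq2 1.42.0 and limma-voom (limma 3.58.1). Others were blocks on replicate number or label set, single label sets, and each library left out. DESeq2 was run without edgeR's filter, so its counts can include genes that edgeR did not test. The test was also run on simulated counts that held no label sets and no outlying library, so that run is no support for the calls given here. Replicates are biological per the design text, with no word on separate cultures, so the tests cover the variation among these 7 libraries. No 2 libraries of a group agreed within sampling noise (chi-square per degree of freedom 13.6 to 148).

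Deviations from the group means correlated across genes at 0.17, 0.52 and 0.40 between same-numbered libraries, for numbers 1, 2 and 3. Among the other pairs, control 2 with OB 1 reached 0.21, above number 1 itself. Control 3 with OB 4 reached 0.27, and the rest ran from -0.47 to 0.10. Each control correlated most with the OB library of its own number, although OB 1 correlated more with control 2. The numbers follow the label sets, and nothing in the labels states a shared source. The main test therefore has no block, and the replicate block is given as an alternative. OB 4 is alone in its block. Named were all 9 genes and, from each list, up to 4 called genes in order of p, or the 2 highest per length where fewer than 2 were called. Of the genes this rule names, 1 is not reported here. Other genes named were chosen after their values were seen. The members and lists were chosen with earlier results of these data known.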

Additional observations from a re-analysis of the deposited data

Results flagged for a closer look

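In each of 36 genes, the highest and lowest of the 4 OB libraries were compared with the rest by Dixon's test, which chance passes in about 1 of 20 groups, and 4 genes passed. Car9 was at 4.44 CPM in OB 2 against 2.44 to 2.61 CPM in the other OB libraries. Slc4a7 was at 112 CPM in OB 2 against 96.8 to 99.2 CPM. Ahcyl2 was at 77.9 CPM in OB 2 against 41.5 to 46.8 CPM. Hvcn1 was at 0.662 CPM in OB 4 against 1.41 to 1.48 CPM. Of these, 3 concern OB 2. Without OB 2, Slc4a7 remained lower in OB (log2 fold change -0.65, edgeR adjusted p = 0.0370).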

How the results depend on the processing

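Slc4a4 kept its direction and call under all 16 alternatives (without single libraries, log2 fold change 2.06 to 2.22). Slc4a7 kept its direction and was called in 11 of 16. It was not called among C1 and C2 libraries (-0.46), and its log2 fold change was -0.67 to -0.52 without single libraries. Libraries with no C number called Slc4a3 (0.62), so that 2 genes were higher there. C1 and C2 libraries gave 0 lower genes, and leaving out single libraries gave 1 higher and 0 to 1 lower. With the replicate block Slc4a4 and Slc4a7 had log2 fold changes of 2.19 and -0.59 (adjusted p = 0.00433 and 0.0472), and no call of the 9 genes changed. Signs turned for genes near 0 with all 7 libraries, none of them called in that fit or where the sign turned. Slc4a2 was at 0.0216 with the replicate block, 0.0027 with the label set block and 0.0323 with no C number. Car13 was at -0.0205 with the replicate block, -0.0659 by limma-voom and -0.16 among C1 and C2 libraries. Car9 was at -0.0459 with no C number and Slc4a3 at -0.19 among C1 and C2 libraries. Without single libraries Slc4a2 ranged from -0.0920 to 0.0199, Slc4a3 from -0.0570 to 0.307, Car9 from -0.0705 to 0.266 and Car13 from -0.0929 to 0.108. Over all genes, counts higher and lower were 1292 and 1129 by DESeq2, 1247 and 1081 by limma-voom, 1433 and 1256 with the label set block, 3052 and 3413 with no C number, 1030 higher among C1 and C2 libraries, and 190 to 575 and 104 to 703 without single libraries. The cause of these shifts was not tested. Libraries with no C number hold 1 control, assumed to vary like the OB pair. Car12 could not be tested at this depth.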

Other observations

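A few genes of the same lists were too rare for the filter and are named after their values were seen. Car8, which encodes an acatalytic relative of the carbonic anhydrases that binds the inositol trisphosphate receptor, had 25, 12 and 43 counts in control 1, 2 and 3 and 0, 0, 3 and 3 counts in OB 1 to 4. The pooled CPM in OB was 0.0713 of that in control, with counting limits of 0.0254 and 0.162 (exact binomial). Its adjusted p was 0.00372 by DESeq2 and 0.0254 by edgeR with no filter. Slc26a4, which encodes the anion exchanger pendrin, had 0 counts over the controls and 9, 7, 1 and 4 counts in OB 1 to 4, at least 6.65-fold higher when 3 counts over the control group are taken as the limit (DESeq2 adjusted p = 0.0143). Cftr, the gene of an anion channel that conducts chloride and bicarbonate, had 0 counts over the controls and in OB 1 and OB 2, and 3 and 6 counts in OB 3 and OB 4.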
